A study of Sus scrofa with 9 samples.

Results

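The genes described here were 10 matrix metalloproteinases (MMPs) and tissue inhibitors of metalloproteinases (TIMPs): MMP1, MMP2, MMP3, MMP9, MMP11, MMP14, MMP16, TIMP1, TIMP2 and TIMP3. They were chosen by symbol and not by a cut on their values, though with earlier results of these data known. They are 10 of the 19535 gene rows in the count table. RNA was sequenced from interstitial cells isolated from the aortic valves of wild-type pigs (PVICs) aged 4 to 5 months, in 3 libraries for each of 3 groups. Control cells were kept in ordinary growth medium with serum. OIM cells received an osteogenic medium, which adds ascorbic acid at 50 µg/mL, sodium dihydrogen phosphate at 2 mmol/L and insulin. The bFGF cells received the same osteogenic medium together with basic fibroblast growth factor (bFGF) at 50 ng/mL, so no library holds bFGF without OIM. The labels give 3 days of treatment, while the methods of the study state a shorter exposure for the sequenced cells. The labels do not say whether the 3 libraries of a group came from separate pigs or cultures, so each p-value measures the spread between these libraries, which may be technical.

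MMPs are zinc-dependent proteases that cut collagens, elastin, proteoglycans and other proteins of the extracellular matrix. They are made as inactive pro-enzymes, and TIMPs block the active enzymes by binding their catalytic site. In heart valves, interstitial cells make both the matrix and the enzymes that remodel it, and changes in matrix turnover are a known feature of calcific valve disease. RNA levels say nothing of how much pro-enzyme was activated.

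Total gene counts per library were 57075793 to 64723837 in control, 57682710 to 67371523 in OIM and 46773376 to 48270827 in bFGF. Levels are given as CPM (the count of a gene scaled to a fixed library total) on library sizes scaled by the TMM method, which equalizes the bulk of genes between libraries. A gene was called higher or lower where edgeR's quasi-likelihood test gave an adjusted p of at most 0.05 over all 13662 genes tested and the log2 fold change was at least 0.5 in size, and "rose" and "fell" are used only for such calls. All 10 genes passed the filter on low counts. OIM replicate 2 stood apart from the other OIM libraries: the mean chi-square per gene between it and them was 19.1 and 19.2, against at most 11.7 for any other pair of replicates. The 10 interstitial or fibroblast markers were all detected and exceeded each other marker list in every library, with a summed level of 65381 to 70794 CPM in control, 62047 to 64868 CPM in OIM and 39105 to 39471 CPM in bFGF. Most of this sum was COL1A1, COL1A2 and COL3A1, which fell with bFGF along with DCN, while VIM and POSTN rose by log2 fold changes of 0.66 and 1.46 and the other 4 markers, LUM at 0.01 among them, were not called.

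OIM against control asks what the osteogenic medium changed. Levels of all 10 genes were lower on average in OIM, and 1 of them, MMP3, fell by the call rule. None of the 10 was called higher by edgeR or DESeq2, and 9 of the 10, all lower, had an unadjusted p under 0.05, a cut that 26.2% of all genes passed in either direction. Over all genes tested, 1.49% were called higher and 0.864% lower in OIM, and the median log2 fold change of the 10 was -0.32 against -0.0019 for all genes. In 8 of the 10 genes the OIM and control libraries did not overlap, which was true of 28.8% of all genes. These counts describe 10 chosen genes and are not a test of the group.

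MMP3, or stromelysin-1, degrades proteoglycans and fibronectin and can activate other pro-MMPs. It was read at 2.04, 1.77 and 2.03 CPM in the control libraries and at 0.664, 1.12 and 1.1 CPM in the OIM libraries. All 3 OIM values lay below all 3 control values, and OIM replicate 1 was the lowest. MMP3 fell by 1 on the log2 scale (SE 0.232), with an adjusted p of 0.00573 by edgeR's quasi-likelihood test, and the call held in 9 of 9 fits with a single library removed. These levels rest on 36 to 121 counts per library.

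MMP1, or interstitial collagenase, makes the first cut in fibrillar collagens I and III. Its control libraries held 16.6, 14.7 and 13.2 CPM, and its OIM libraries 7.84, 15.4 and 9.42 CPM. OIM replicate 2 lay inside the control range while the other OIM libraries lay below it. The log2 fold change was -0.43 (SE 0.147) and was not called, with an adjusted p of 0.0607 by edgeR's quasi-likelihood test. Without OIM replicate 2 it was -0.78 (adjusted p = 3.62e-09, edgeR's quasi-likelihood test) and passed both thresholds.

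The other 8 genes stayed under the fold limit in OIM against control. For MMP2, MMP9, MMP11, MMP14, MMP16, TIMP1 and TIMP2 the log2 fold changes ranged from -0.39 (MMP9) to -0.14 (TIMP2), with adjusted p between 1.17e-05 (TIMP1) and 0.0278 (MMP9) by edgeR's quasi-likelihood test, and the libraries of the groups did not overlap. TIMP3 gave -0.05 with a 95% interval of -0.15 to 0.05, and its adjusted p was 0.534 by the same edgeR quasi-likelihood test.

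**Figure D1:**
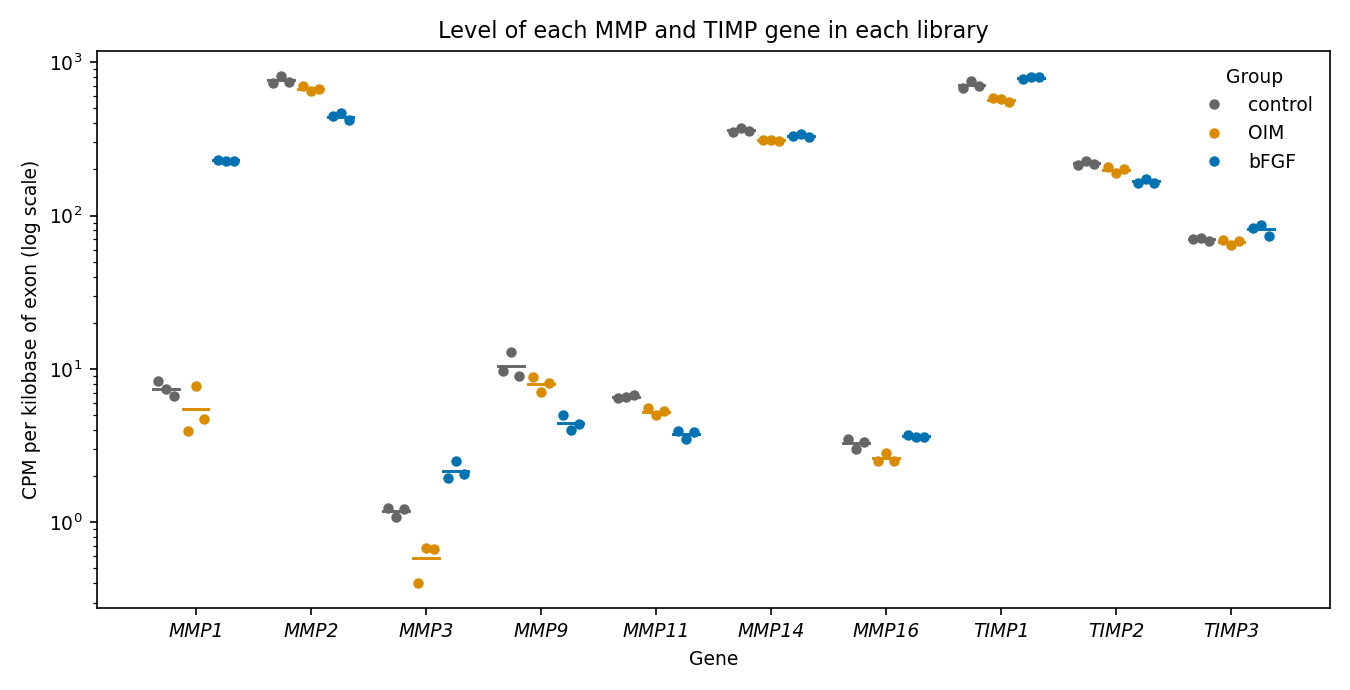
Each point is the level of a gene in 1 library, in CPM per kilobase of exon on a log scale, and each bar is the mean of 3 libraries in control (grey), OIM (orange) or bFGF (blue). MMP1 moves from a mean of 7.43 in control and 5.46 in OIM to 229 in bFGF, while MMP2 and MMP9 are lowest in bFGF.

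bFGF against OIM asks what the growth factor changed in cells already in osteogenic medium. MMP1 and MMP3 rose, MMP2 and MMP9 fell, and the remaining 6 genes were not called. With library totals alone, which raise the median log2 fold change of all genes from -0.0029 to 0.22, 4 of the 10 were higher and 1 lower, beside 27.3% and 12.4% of all genes on that scaling, and without OIM replicate 2 these counts were 4 and 3. Calls were common here over all genes tested, at 17.7% higher and 18.4% lower. The libraries of both groups did not overlap for any of the 10 genes, against 72.1% of all genes. The median log2 fold change of the 10 was 0.18.

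MMP1 had the largest change of the 10. The bFGF libraries held 461, 456 and 453 CPM, from 23542 to 24728 counts each, against 7.84, 15.4 and 9.42 CPM in OIM. Every bFGF library was thus far above every OIM and control library, and the bFGF values lay close together. MMP1 rose 41.4-fold, a log2 fold change of 5.37 (SE 0.14, adjusted p = 3.21e-17 by edgeR's quasi-likelihood test). Over the fits that left out 1 library it ranged from 5.19 to 5.74.

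MMP3 also rose with bFGF, from 0.664, 1.12 and 1.1 CPM in OIM to 3.21, 4.11 and 3.37 CPM. The bFGF libraries were above all OIM and all control libraries. The change was 3.68-fold, or 1.88 on the log2 scale (SE 0.227, adjusted p = 3.94e-07, edgeR's quasi-likelihood test). MMP3 stayed the least abundant of the 10 per length in every group. The reference annotation gives MMP10 as a synonym of the MMP3 record, and the table has no row of its own for MMP10, so reads of the pair are not told apart here.

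MMP11, or stromelysin-3, differs from most MMPs in being activated inside the cell by furin. It was read at 44.9, 40.3 and 42.8 CPM in OIM and at 31.7, 28.3 and 31.3 CPM in bFGF. All bFGF libraries were lower than all OIM libraries. The log2 fold change of -0.49 (SE 0.0578, adjusted p = 2.99e-07 by edgeR's quasi-likelihood test) fell just short of the fold limit. It passed that limit without OIM replicate 2 (-0.51), without bFGF replicate 1 (-0.52) and without bFGF replicate 3 (-0.51).

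The gelatinases MMP2 and MMP9 cut denatured collagen and the collagen IV of basement membranes, and both fell with bFGF. MMP2 was read at 2159, 2000 and 2047 CPM in OIM and at 1377, 1428 and 1285 CPM in bFGF. The groups did not overlap, and the control libraries, at 2262, 2498 and 2303 CPM, were above both. MMP2 was 1.52-fold lower in bFGF than in OIM (log2 fold change -0.60, SE 0.0434, adjusted p = 1.72e-10 by edgeR's quasi-likelihood test). This value lies near the fold limit and depends on the scaling, since with library totals alone it was -0.38 and was not called.

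MMP9 was far less abundant than MMP2. Its OIM libraries held 20.4, 16.4 and 18.6 CPM and its bFGF libraries 11.6, 9.23 and 10.0 CPM, after 22.3, 29.4 and 20.7 CPM in control. No bFGF library reached an OIM library, and control replicate 2 was the highest of all 9. MMP9 was 1.8-fold lower in bFGF than in OIM (log2 fold change -0.84, SE 0.12, adjusted p = 3.35e-06 by edgeR's quasi-likelihood test). Leukocytes are another known source of MMP9. The summed level of 10 leukocyte markers was 14.7 to 18.1 CPM in control, 15.5 to 16.7 CPM in OIM and 8.86 to 9.6 CPM in bFGF, with CD3E and MS4A1 at 0 in all libraries, and 2 of the 5 markers tested, CD14 (log2 fold change -0.81) and CD163 (-0.88), were called lower in bFGF than in OIM, beside 18.4% of all genes. In bulk RNA, fewer cells of a type and less RNA per cell cannot be told apart, and the part of these markers in the MMP9 result was not tested.

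The membrane-type enzymes MMP14 and MMP16 are anchored at the cell surface, and MMP14 together with TIMP2 is known to activate pro-MMP2. MMP14 was read at 1270, 1263 and 1254 CPM in OIM and at 1346, 1375 and 1323 CPM in bFGF. The bFGF libraries were above the OIM libraries and below the control libraries, which held 1435, 1514 and 1450 CPM, though with library totals alone the mean was 1494 CPM in bFGF against 1391 CPM in control. The difference between bFGF and OIM was 0.09 on the log2 scale with a 95% interval of 0.03 to 0.16, well under the fold limit, although its adjusted p was 0.0131 by edgeR's quasi-likelihood test.

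MMP16 was read at 30.1, 33.9 and 30.3 CPM in OIM and at 44.6, 43.5 and 43.5 CPM in bFGF. The bFGF libraries were the highest of the 9, since control held 42.1, 36 and 40 CPM. The log2 fold change of 0.48 (SE 0.063, adjusted p = 1.14e-06, edgeR's quasi-likelihood test) was not called. Without OIM replicate 2 it was 0.56, past the limit, and with library totals alone it was 0.70. A gene on the opposite strand, LOC106510034, overlaps the start of MMP16, and its transcript had at most 5.51 estimated counts in any library.

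TIMP1, a secreted inhibitor of most soluble MMPs, was read at 415, 415 and 393 CPM in OIM and at 558, 569 and 569 CPM in bFGF. All bFGF libraries were above all OIM and control libraries, the latter at 482, 536 and 502 CPM. The log2 fold change was 0.47 (SE 0.0388, adjusted p = 1.41e-09 by edgeR's quasi-likelihood test), not called. It reached 0.50 without OIM replicate 2 and 0.69 with library totals alone, both past the limit.

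TIMP2, which inhibits MMP2 and bridges its pro-form to MMP14, was read at 769, 696 and 746 CPM in OIM and at 606, 638 and 605 CPM in bFGF. The groups stood apart, with a log2 fold change of -0.26 (SE 0.0397, adjusted p = 9.17e-06, edgeR's quasi-likelihood test) that was under the fold limit. TIMP3, which is bound to the matrix and also inhibits ADAM and ADAMTS proteases, was read at 322, 298 and 314 CPM in OIM and at 386, 399 and 341 CPM in bFGF. Its bFGF replicate 3 lay closest to OIM, and the log2 fold change of 0.27 (SE 0.0476, adjusted p = 4.76e-05, edgeR's quasi-likelihood test) was also under the limit. In the main edgeR fit and with DESeq2, none of the 3 inhibitors was thus called in either direction, since each missed the fold limit. TIMP1 and TIMP3 were on the opposite side of 0 from TIMP2.

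**Figure D2:**
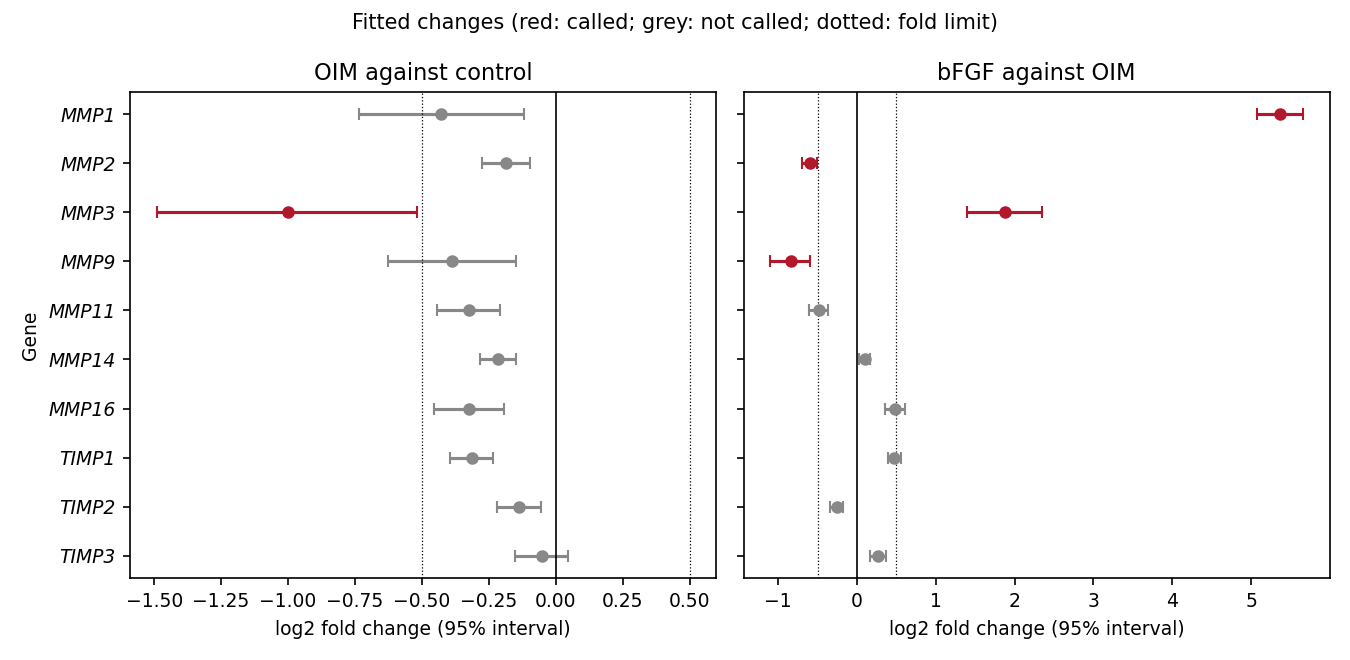
Points are log2 fold changes of the 10 genes with 95% intervals from the edgeR fit, for OIM against control (left) and bFGF against OIM (right), with called genes in red and dotted lines at the fold limit. All 10 points are below 0 on the left, where MMP3 alone is called, and MMP1 stands at 5.37 on the right. The horizontal scales differ between the panels.

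The third comparison, bFGF against control, shares its libraries with the first and second, so its values are given side by side and not as support. MMP1 was higher by 4.95 on the log2 scale (30.8-fold) and MMP3 by 0.88 (1.83-fold), while MMP2, MMP9 and MMP11 were lower, by log2 fold changes of -0.79, -1.23 and -0.81. These 5 genes were called, with adjusted p between 5.93e-17 (MMP1) and 0.00117 (MMP3) by edgeR's quasi-likelihood test, beside 18.9% of all genes called higher and 20.0% called lower. The libraries did not overlap for any of the 10 genes, as for 73.7% of all genes. MMP2, MMP9, MMP11 and TIMP2 had negative values at both steps, -0.19 and -0.60 for MMP2, -0.39 and -0.84 for MMP9, -0.33 and -0.49 for MMP11 and -0.14 and -0.26 for TIMP2, whereas the log2 fold change of MMP3 was -1 for OIM against control and 1.88 for bFGF against OIM. MMP14 was at -0.12 against control, a value that turned to 0.10 with library totals alone.

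Levels of different genes can be set against each other only per length, so CPM was divided by the kilobases of annotated exon. In control, MMP2 (764 ± 40.9, SD, n = 3) and TIMP1 (708 ± 38.0) led with overlapping libraries, followed by MMP14 (360 ± 10.3), TIMP2 (219 ± 7.47) and TIMP3 (69.8 ± 1.48). The other 5 genes were at most 10.5 on this scale, MMP9 being the highest of them and MMP3 the lowest (1.18 ± 0.0936), and MMP1 and MMP11 overlapped. The rank of MMP11 rests on the length used, 8098 bases pooled over 6 annotated transcripts, against 2302 bases for MMP9. Before division by length, the control means were 53.4 CPM for MMP11 and 24.1 CPM for MMP9. Ranks of single genes with other lengths were not tested. The order in OIM was the same, from MMP2 (671 ± 26.6) and TIMP1 (569 ± 17.7), here apart, down to MMP3 (0.587 ± 0.158), and in it MMP9 overlapped MMP1 and MMP1 overlapped MMP11.

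In bFGF the order changed. TIMP1 (789 ± 8.94 CPM per kilobase) stood above MMP2 (442 ± 23.4) and MMP14 (331 ± 6.4), and MMP1 (229 ± 2.09) took rank 4, above TIMP2 (167 ± 5.04) and TIMP3 (81.1 ± 6.59). The libraries of each of these neighbours were apart. MMP9 (4.46 ± 0.515) came next, then MMP11 (3.76 ± 0.233) and MMP16 (3.65 ± 0.0534), which overlapped. The length used for MMP11 limits its rank here too.

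Summed over the 7 MMPs, the level was 1116 to 1213 CPM per kilobase in control, 983 to 1034 in OIM and 983 to 1043 in bFGF. The OIM and bFGF sums overlapped on this scaling, but with library totals alone they were 939 to 972 in OIM and 1092 to 1150 in bFGF and did not. Shares within the sum do not depend on the scaling. MMP1 made up 0.38% to 0.786% of the sum in OIM and 21.9% to 23.1% in bFGF. The share of MMP2 was 66.1% to 67.8% in OIM and 42.5% to 44.4% in bFGF, and that of MMP14 was 30.2% to 31.6% and 32.3% to 33.1%. Control libraries were like OIM, with 0.584% to 0.746% for MMP1 and 65.8% to 66.8% for MMP2.

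The 3 TIMPs summed to 957 to 1047 CPM per kilobase in control, 819 to 858 in OIM and 1026 to 1053 in bFGF, where control and bFGF overlapped, and with library totals alone to 913 to 981, 774 to 806 and 1140 to 1161. TIMP1 made up 70.4% to 71.5% of this sum in control, 67.1% to 69.6% in OIM and 75.4% to 77.0% in bFGF, and TIMP2 made up 22.6% to 24.6% in OIM and 15.9% to 16.4% in bFGF. The ratio of summed MMP to summed TIMP was 1.15 to 1.17 in control, 1.18 to 1.21 in OIM and 0.953 to 0.997 in bFGF. The bFGF ratios lay below those of the other groups, and no test was made on sums of chosen genes. With the longest transcript in place of all exons the group means were 1.13, 1.18 and 0.966, in the same order.

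**Figure D3:**
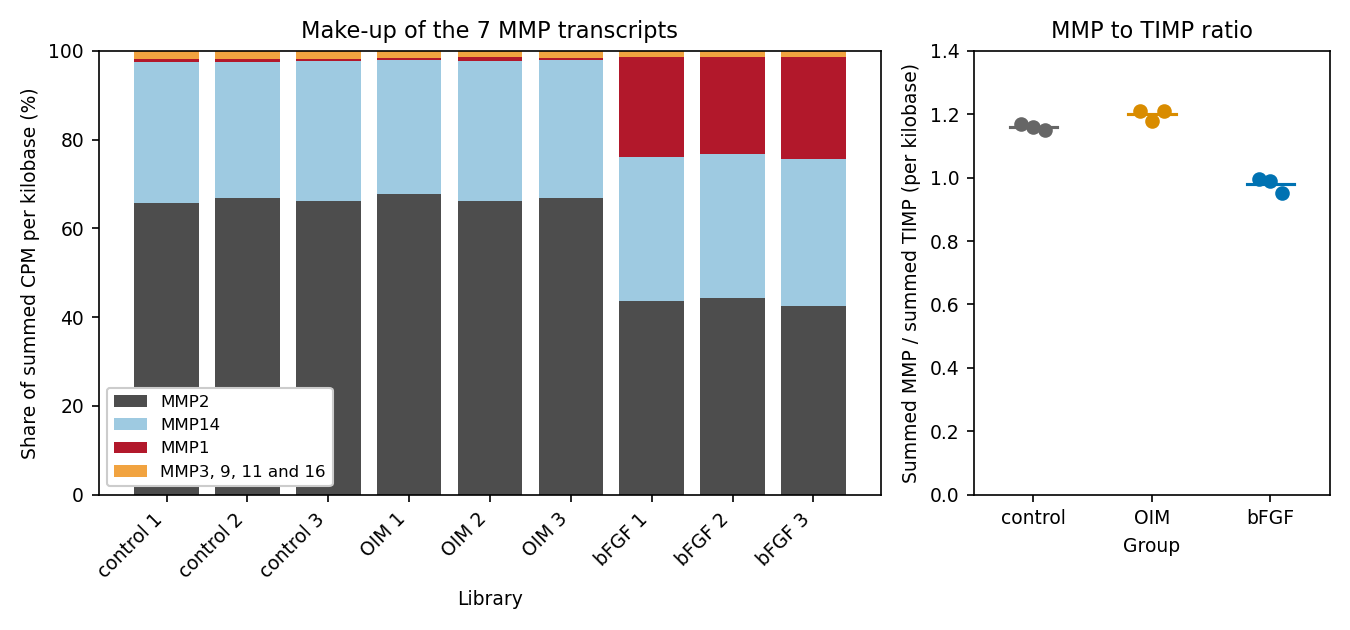
The bars give the share of each MMP in the summed CPM per kilobase of the 7 MMPs in each library, in percent, and the points give the ratio of summed MMP to summed TIMP in each library with the group mean as a bar. MMP1 takes 21.9% to 23.1% in the bFGF libraries and under 1% in the others, and the ratios of bFGF lie under those of control and OIM.

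MMP1 and MMP3 are neighbours on chromosome 9 of the Sscrofa11.1 assembly, MMP1 at chr9:33411738-33420205 and MMP3 at chr9:33446969-33453995, both on the minus strand and 26.8 kb apart. They lie in a cluster of 8 MMP genes over 402 kb, in the order MMP7, MMP20, MMP27, MMP8, MMP1, MMP3, MMP12 and MMP13. The rise with bFGF was not shared by the whole cluster. MMP7, MMP20 and MMP27 had 0 counts in all 9 libraries, and MMP8 had at most 2 counts. If these genes were counted at all, 0 counts allow up to 0.0577 CPM, the level of 3 counts in the shallowest scaled library.

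MMP12, the macrophage elastase, is next to MMP3 and was read at 2.44, 4.52 and 4.00 CPM in control, 1.96, 1.35 and 1.86 CPM in OIM and 0.559, 0.923 and 1.35 CPM in bFGF. It fell at both steps, by log2 fold changes of -1.09 in OIM against control (adjusted p = 0.00933) and -0.86 in bFGF against OIM (adjusted p = 0.0156, both by edgeR's quasi-likelihood test). The first call was lost without control replicate 2 (-0.91), and the second without OIM replicate 1 (-0.76), without bFGF replicate 1 (-0.60) and with library totals alone (-0.64). The macrophage and monocyte markers CD163 and CD14 were also lower in bFGF than in OIM, as given beside MMP9, and were not called in OIM against control (-0.45 and -0.02). The other leukocyte markers tested, CD68, CSF1R and PTPRC, were not called in either comparison. Their values were -0.265, -0.648 and -0.695 in bFGF against OIM and 0.272, -0.4 and 0.196 in OIM against control. The part of these markers in the MMP12 result was not tested. MMP13, or collagenase-3, had 5 to 27 counts per library and was not called (log2 fold change 1.06 in bFGF against OIM, 95% interval -0.09 to 2.2), although with library totals alone its value of 1.27 was.

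**Figure D4:**
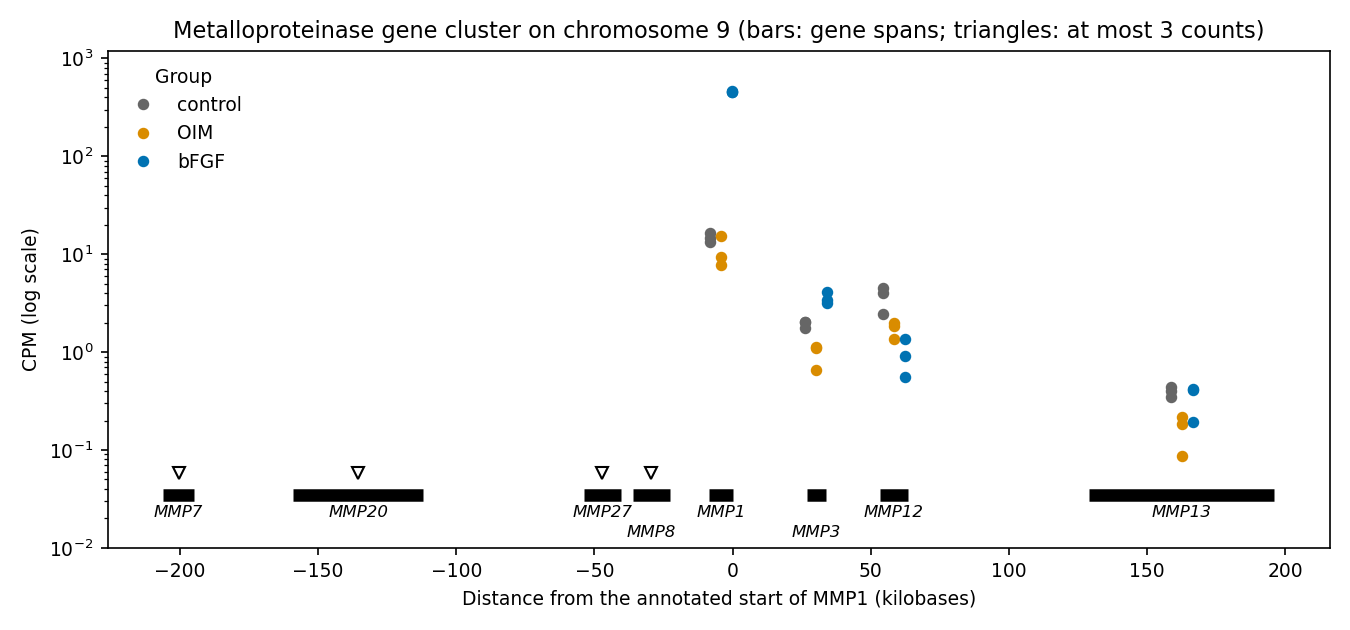
Bars are the spans of the 8 MMP genes of the chromosome 9 cluster, placed by distance from the annotated start of MMP1 in kilobases, and points are CPM in each library on a log scale, with open triangles for genes of at most 3 counts in every library. MMP1 and MMP3 are highest in bFGF, MMP12 beside them is lowest in bFGF, and MMP7, MMP20, MMP27 and MMP8 are at or near 0.

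The remaining members are on other chromosomes of the same assembly: MMP2 at chr6:30059247-30087031 (minus strand), MMP9 at chr17:48179690-48186782 (plus), MMP11 at chr14:49907684-49917494 (minus), MMP14 at chr7:76174502-76185931 (minus), MMP16 at chr4:48556826-48867959 (plus), TIMP1 at chrX:42103251-42106289 (plus), TIMP2 at chr12:3254794-3300835 (plus) and TIMP3 at chr5:12185816-12242599 (minus). TIMP1 lies within SYN1 and TIMP3 within SYN3, each on the opposite strand, and neither pair shares an exon base. SYN1 had 62 to 168 counts and SYN3 at most 12, against at least 17451 for TIMP3 and 22451 for TIMP1. CEP295NL lies inside TIMP2 on the same strand, with 75 to 141 counts and no shared exon base. Among the circular RNA rows, 1 fell within a member, a span of 161 bases in MMP14 with 3 reads in bFGF replicate 1 and none elsewhere.

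MMP promoters are known for binding AP-1, a dimer of FOS and JUN proteins, and ETS factors of the PEA3 group, both of which act downstream of growth factor signalling. For AP-1 the letters searched were TGANTCA. For the PEA3 and ETS factors they were AGGAAG. The TATA box was searched as TATAAA. All were searched on both strands from 250 bases before to 50 bases after each annotated start, read from the RefSeq genome of Sscrofa11.1. Of 19556 protein-coding promoters, 6.07% held the AP-1 letters, 29.5% the ETS letters and 10.9% the TATA letters. The AP-1 letters stood in the windows of 2 of the 10 genes, MMP3 and MMP9, which moved in opposite directions with bFGF, and among the other MMP and TIMP genes in those of MMP12, MMP19, MMP20 and TIMP4. Of these, MMP12 fell with bFGF, MMP19 was not called, MMP20 had 0 counts and TIMP4 rose on few reads. The matches of MMP3 and MMP9 are shown as those of the 10 genes, and that of MMP12 as the neighbour of MMP3. Each line is 5′ to 3′ on the strand of the gene, with the matched letters in capitals, at chr9:33454052-33454081 (minus), chr17:48179566-48179595 (plus), chr17:48179610-48179639 (plus) and chr9:33483741-33483770 (minus), and the first matched base is 75, 113, 69 and 129 bases before the start.
MMP3: gaaagcattcaTGAGTCAatttgtgggtga
MMP9, upstream site: tccgcatccccTGAGTCAgctctcccctaa
MMP9, downstream site: ggcggggtcacTGATTCAgtgacagtgcct
MMP12: gagatcaactgTGAGTCAtgcaaaggattt
A match is a description of letters, not a site shown to be bound. The window of MMP1 held neither the AP-1 nor the ETS letters and held the TATA letters on the opposite strand. MMP3 held all 3 kinds, and MMP2 held the ETS letters.

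Of 20 factors known to act at MMP promoters, all 20 were tested. In bFGF against OIM 4 rose, 5 fell and 11 were not called, with a median of -0.0024, close to the 17.7% higher and 18.4% lower over all genes. With library totals alone 7 were higher and 4 lower, where all genes gave 27.3% and 12.4%. None was called in OIM against control by edgeR or DESeq2, where 7 of the 20 had an unadjusted p under 0.05 (26.2% of all genes), but ETV5 passed without OIM replicate 2 (-0.63) and ETV4 without OIM replicate 3 (0.55). The ETS factors of the PEA3 group ETV5 and ETV4 rose by log2 fold changes of 2.72 (SE 0.185, adjusted p = 7.28e-11) and 2.02 (SE 0.113, adjusted p = 3.32e-12, both by edgeR's quasi-likelihood test). FOSL1 and JUN, which can pair in AP-1, rose by 1.74 and 1.16, while FOSB fell by 2.55, ETS1 by 0.86, the inflammatory factor CEBPB by 0.77 and the cytokine effector STAT3 by 0.72. ETV4 was read at 15.6, 22.4 and 13.5 CPM in OIM and at 68.0, 71.8 and 69.9 CPM in bFGF. FOSL1 was read at 21.4, 31.6 and 19.6 CPM in OIM and at 82.9, 77.2 and 82.7 CPM in bFGF.

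The inducer list holds cytokines, growth factors and receptors known to set MMP expression, and feedback genes of the ERK pathway. Of its 17 tested members 7 rose, 5 fell and 5 were not called in bFGF against OIM (median 0.13), beside 17.7% higher and 18.4% lower over all genes. None was called in OIM against control by edgeR or DESeq2, where 9 of the 17 had an unadjusted p under 0.05 (26.2% of all genes), but without OIM replicate 2 TGFB1 (-0.52), IL1B (-0.87) and TGFB3 (0.57) passed. TGFB1 rose by 2.27 on the log2 scale, IL6 by 2.03, LIF by 1.69 and DUSP6, a phosphatase that is induced by ERK and acts on it, by 1.95. The FGF receptor FGFR2 fell by 3.00, IL1B, a classical inducer of MMP1 and MMP3, by 1.72, TGFB3 by 1.68 and the oncostatin M receptor OSMR by 1.57. Adjusted p for these 8 genes was at most 2.03e-05 by edgeR's quasi-likelihood test.

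The next list holds genes that activate pro-MMPs or control them at the cell surface. Among 27 tested, 6 rose, 11 fell and 10 were not called in bFGF against OIM, with a median of -0.25, beside 17.7% higher and 18.4% lower over all genes. With library totals alone 9 were higher and 10 lower, beside 27.3% and 12.4% of all genes. PLAT, the tissue plasminogen activator, was read at 60.9, 65.2 and 55.8 CPM in OIM and at 299, 325 and 319 CPM in bFGF, a log2 fold change of 2.37 (SE 0.0541, adjusted p = 4.69e-18 by edgeR's quasi-likelihood test). PLAUR, the urokinase receptor, rose by 1.60, the integrin subunit ITGB3 by 1.95 and the endocytic receptor LRP2 by 1.43. Plasmin made by plasminogen activators is a known activator of pro-MMPs.

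The 4 genes of the list named by the largest falls were THBS2, LCN2, A2M and THBS1. THBS2, a matricellular protein that helps clear MMP2, was read at 1429, 1063 and 1397 CPM in OIM and at 100, 101 and 92.0 CPM in bFGF, and it fell by 3.73 on the log2 scale. LCN2, which binds MMP9, fell by 3.30, the broad protease inhibitor A2M by 2.17 and THBS1 by 2.04, with adjusted p of at most 3.2e-10 for these 4 by edgeR's quasi-likelihood test. In OIM against control 2 genes of the list fell, LCN2 by 0.70 and the caveolar protein CAV1 by 0.59, beside 1.49% higher and 0.864% lower over all genes. Without OIM replicate 2, THBS2 also passed (0.52), as did LRP2 without control replicate 1 (-1.08).

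The related ADAM and ADAMTS proteases were also mixed, with 7 of 25 tested higher, 9 lower and 9 not called in bFGF against OIM (median -0.08), beside 17.7% higher and 18.4% lower over all genes. With library totals alone 9 were higher and 8 lower, beside 27.3% and 12.4%. ADAM8, a membrane protease of leukocytes and activated cells, was read at 3.71, 5.17 and 3.61 CPM in OIM and at 59.6, 57.3 and 62.3 CPM in bFGF, a rise of 3.83 on the log2 scale (14.3-fold, adjusted p = 2.11e-16 by edgeR's quasi-likelihood test). The aggrecanase ADAMTS4 rose by 1.83 while the aggrecanase ADAMTS5 fell by 2.2, and ADAMTS8 and ADAMTS3 rose by 1.26 and 0.73. ADAMTS9 fell by 1.68, ADAMTS1 by 1.15 and ADAM19 by 1.10. In OIM against control ADAM8 (0.68) and ADAM19 (0.51) were higher, 2 of 25 beside 1.49% of all genes, and these calls were lost without OIM replicate 2 for ADAM8 (0.48) and without control replicate 1 (0.48), OIM replicate 1 (0.46) or OIM replicate 3 (0.43) for ADAM19. ADAMTS15 (-0.82, adjusted p = 0.0519 by edgeR's quasi-likelihood test) was not called, but was called lower by DESeq2, without a filter on low counts, with the replicate block and without OIM replicate 3.

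Of the matrix proteins that MMPs cut, 24 were tested, and 2 rose, 16 fell and 6 were not called in bFGF against OIM, beside 17.7% higher and 18.4% lower over all genes. With library totals alone 5 were higher and 13 lower, beside 27.3% and 12.4% of all genes. Their median log2 fold change was -0.87, the lowest of the 5 pathway lists. Aggrecan (ACAN) fell by 2.42, elastin (ELN) by 2.35, SPARC by 1.81 and COL4A1, a chain of the basement membrane collagen IV, by 1.57, while COL18A1 and NID1, both of basement membranes, rose by 1.62 and 1.59. In OIM against control ELN (0.997) and ACAN (0.82) rose and none fell by edgeR or DESeq2, beside 1.49% higher and 0.864% lower over all genes. An unadjusted p under 0.05 was found for 17 of the 24 and for 26.2% of all genes. COL1A1, COL1A2 and COL3A1, chains of the fibrillar collagens that MMP1 cuts, were among the 16 that fell with bFGF.

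**Figure D5:**
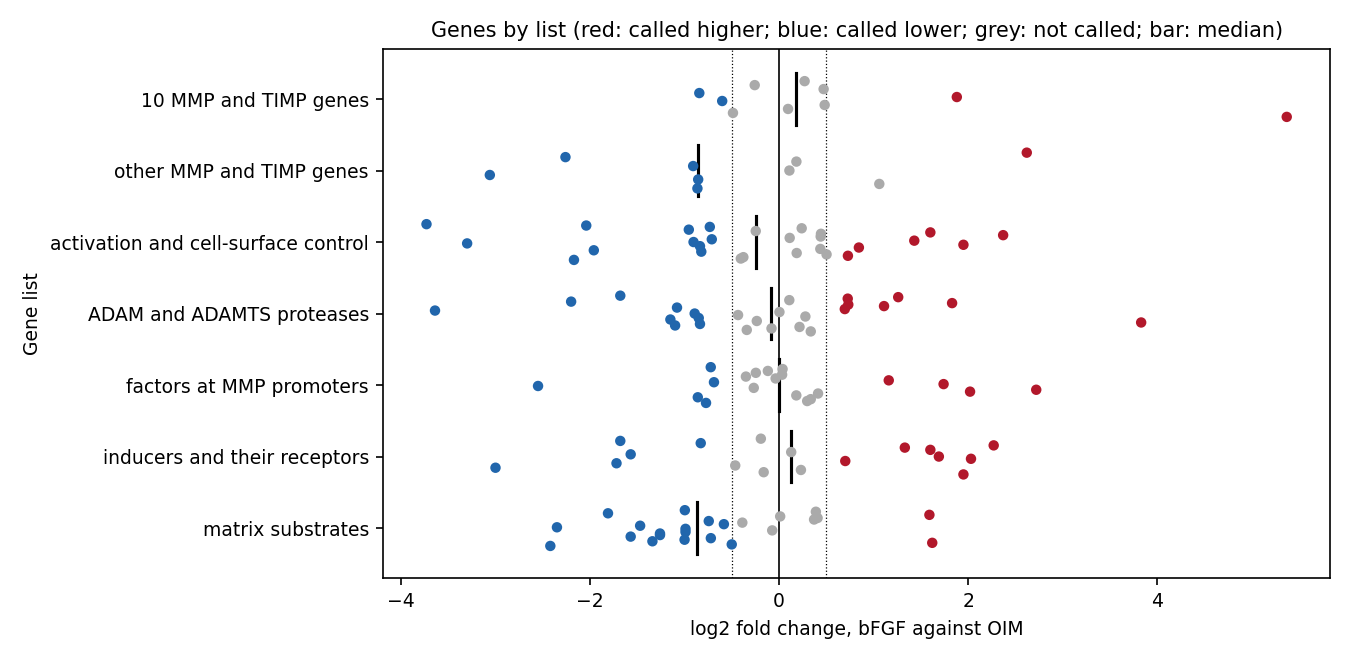
Each point is the log2 fold change of a tested gene in bFGF against OIM, by list, with genes called higher in red, called lower in blue and not called in grey, a black bar at the median of each list and dotted lines at the fold limit. The matrix substrates and the other MMP and TIMP genes have medians of -0.87 and -0.86, and the other lists have medians between -0.25 and 0.18.

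Beyond the 10 genes, 17 other MMP and TIMP symbols were looked up, 14 had a row and 9 were tested. In bFGF against OIM 1 of the 9 rose, 5 fell and 3 were not called, with a median of -0.86, beside 17.7% higher and 18.4% lower over all genes. Of the 9, 2 (MMP13 and TIMP4) were called higher and 4 lower with library totals alone, beside 27.3% and 12.4% of all genes. MMP17, a membrane-type enzyme held by a lipid anchor, was read at 6.16, 5.28 and 4.46 CPM in OIM and at 0.615, 0.827 and 0.462 CPM in bFGF. It was 8.33-fold lower in bFGF (log2 fold change -3.06, SE 0.224, adjusted p = 2.26e-10 by edgeR's quasi-likelihood test). MMP28 (-2.26), MMP23B (-0.91), the membrane-type MMP15 (-0.86) and MMP12 (-0.86) were the others that fell, while MMP19 (0.11), MMP25 (0.18) and MMP13 (1.06) were not called.

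TIMP4 was the gene that rose, on very few reads: its libraries held 4, 2 and 0 counts in OIM, 13, 14 and 8 in bFGF and 4, 14 and 1 in control. The fitted log2 fold change of 2.62 had a 95% interval of 0.67 to 4.58 (adjusted p = 0.0179 by edgeR's quasi-likelihood test), and the call was lost without OIM replicate 3 (2.08) and without bFGF replicate 2 (2.46). In a fit of the OIM and bFGF libraries alone TIMP4 did not pass the filter on low counts and was not tested. It lies within SYN2 on the opposite strand and shares 90 exon bases with it, and whether the counting used strand is not given in the sources used here.

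In OIM against control, MMP17 was higher by 0.57 (adjusted p = 0.0448 by edgeR's quasi-likelihood test) and MMP12 was lower, beside 1.49% higher and 0.864% lower over all genes. The MMP17 call was lost in 6 of the 9 fits that left out 1 library: without control replicate 1 (0.66), 2 (0.62) or 3 (0.44), OIM replicate 1 (0.45) or 2 (0.58), or bFGF replicate 1 (0.57). MMP28 was not called (0.88), but passed without OIM replicate 2 (1.12). In bFGF against control 1 of the 9 was called higher and 5 lower, beside 18.9% and 20.0% of all genes. The higher one, MMP25 (0.91, adjusted p = 0.0495 by edgeR's quasi-likelihood test), was called in 1 of the 9 such fits (1.21 without control replicate 1) and otherwise ranged from 0.58 without control replicate 3 to 1.03 without bFGF replicate 2. It was also lost with the replicate block (0.95) and without a filter on low counts (0.90).

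The genes whose profiles over the 9 libraries lay closest to those of MMP1 and MMP9 were found by the root mean square difference between log2 CPM values, each centred on its own mean. For MMP1 they were HMGA1 (0.245), KCNK12 (0.341) and EMB (0.368), whose log2 fold changes in bFGF against OIM were 5.32, 4.80 and 4.68. For MMP9 they were TGFBR3 (0.126), TRANK1 (0.128) and CTSD (0.13), at -0.97, -0.94 and -0.81. The 9 libraries fall into 3 groups and are not independent points.

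Markers of other cell types also differed between groups. The summed level of 8 endothelial markers was 72.6 to 74.4 CPM in control, 86.8 to 87.9 CPM in OIM and 167 to 177 CPM in bFGF. ERG made up most of it, with means of 51.5, 66.8 and 137 CPM. In bFGF against OIM 6 of the 8 rose (PECAM1, CDH5, TEK, KDR, ERG and CLDN5), beside 17.7% of all genes. VWF (-0.43) and TIE1 (0.13) were not called. CDH5 (0.507) lay just past the fold limit, and KDR and CLDN5 had wide SEs of 0.637 and 0.848. In OIM against control ERG was at 0.37, under the fold limit, and the median of the 8 was -0.06. Markers of smooth muscle or activated interstitial cells summed to 9567 to 10095 CPM in control, 9853 to 13057 CPM in OIM and 1536 to 1712 CPM in bFGF, and all 5 (ACTA2, TAGLN, CNN1, MYH11 and DES) fell with bFGF, beside 18.4% of all genes. In OIM against control MYH11 (1.13) and DES (3.33) rose, with adjusted p of 1.02e-05 and 4.96e-06 by edgeR's quasi-likelihood test, beside 1.49% of all genes. ACTA2 (0.316), TAGLN (0.126) and CNN1 (0.478) were not called in that comparison. Cardiomyocyte markers summed to at most 3.73 CPM, with TNNT2 and NPPA at 0 in every library, and 1 of the 3 tested, TNNI3, was called higher in bFGF than in OIM (0.56) and control (0.64), beside 17.7% and 18.9% of all genes (adjusted p = 0.0468 and 0.0248, edgeR's quasi-likelihood test). Its OIM and bFGF libraries overlapped, with 2.44 CPM in the highest OIM library and 2.42 CPM in the lowest bFGF library. Epithelial markers summed to at most 0.066 CPM, with KRT5 at 0. The part of the endothelial, smooth muscle, leukocyte and cardiomyocyte markers in the MMP and TIMP results was not tested.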

How the data were processed

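The authors deposited estimated counts per gene for 9 libraries in 1 table, with 19535 gene rows of whole numbers, 9888 non-coding transcript rows, 6179 circular RNA rows and 19 empty columns without a name. Per the labels, reads were trimmed with Trimmomatic, aligned with HISAT2 and assembled with StringTie on Sscrofa11.1, while the methods of the study name other tools and another library kit. The counter and its use of strand are not given in the sources used here. Groups and replicate numbers came from the labels. Columns of the table matched sample names, and no other per-sample column was left unused.

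The test on gene counts was that of edgeR 4.0.16, run in R 4.3.3 (filterByExpr, TMM, glmQLFit and glmQLFTest, 3 groups in 1 fit, 6 residual degrees of freedom), with Benjamini-Hochberg adjustment over 13662 genes. The thresholds followed the study. The common biological coefficient of variation was 0.0602. SE is the log2 fold change divided by the square root of F. Tested on simulated data for bFGF against OIM (13520 genes), the procedure recovered 191 of 200 changed genes and made 1 false call. The planted changes were all well above the fold limit, as many up as down, and none was in a gene of low counts. Far fewer genes were changed than were called in the real comparison. The simulation therefore does not cover changes near the fold limit, genes of low counts or the choice of scaling. Lengths are unions of RefSeq exons. The circular RNA rows served to check the build: 84.9% of 6178 placed rows had both ends at annotated exon boundaries.

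Alternatives were DESeq2 1.42.0, median-of-ratios factors, library totals, other filters and fold limits, fits of 2 groups, the replicate block, and leaving out each library. The MMP to TIMP ratio by longest transcript and the summed levels by library totals were added after seeing the data. All 10 genes and every tested other MMP or TIMP gene were named. From each pathway list up to 4 called genes in each direction were named for bFGF against OIM, by largest fold among those with libraries that did not overlap and a mean of at least 1 CPM in the higher group, and up to 2 in each direction for OIM against control. COL1A1, COL1A2, COL3A1, ADAMTS15 and the overlapping genes were named outside this rule, after their values were seen. The genes and lists were chosen with earlier results of these data known. Depth limits counting error only at low counts, and 3 counts correspond to 0.0461 to 0.0577 CPM.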

Additional observations from a re-analysis of the deposited data

How the results depend on the processing

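Of 654 comparisons of a main result with an alternative, 623 were labelled as kept. For the fold change of a gene this means the same direction and side of the threshold. For a count of calls it means only a count of similar size, and for the MMP to TIMP ratio a mean within the SD. Without a fold limit, 8 of the 10 genes were called lower in OIM against control, 6 higher and 4 lower in bFGF against OIM, and 5 and 5 in bFGF against control, with 1853, 9203 and 9590 calls over all genes. With a log2 limit of 1 those totals were 91, 2461 and 2756. Of the 10 genes, MMP1 and MMP3 were still called higher and 0 lower in bFGF against OIM, and 1 rose and 1 fell in bFGF against control. With unadjusted p, 549 genes were called in OIM against control. With library totals alone the median of all genes in bFGF against OIM was 0.22 (0.21 against control), 68.8% of calls were higher in place of 49.0% (68.1% and 48.5% against control), and 4 of the 10 genes were called higher and 1 lower. MMP2 was then at -0.38, MMP16 at 0.70 and TIMP1 at 0.69, and against control MMP14 turned to 0.10, MMP13 to 0.0022 and MMP19 to 0.0536. The shift by scaling is fixed by its construction, since it changed all CPM of bFGF by 10.8%, of OIM by -4.95% and of control by -5.13%.

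Over the fits that left out 1 library, 1 to 2 of the 10 genes were lower in OIM against control and 2 to 4 higher in bFGF against OIM. In the main fit 0.864% and 17.7% of all genes were called so. In bFGF against OIM, MMP2 and MMP9 were called lower in 9 of the 9 fits and MMP11 in 3, beside 18.4% of all genes in the main fit. MMP1 ranged from -0.78 to -0.24 in OIM against control, and in bFGF against OIM MMP11 from -0.52 to -0.44, MMP16 from 0.45 to 0.56 and TIMP1 from 0.45 to 0.50. The cause was not tested. Values near 0 that changed sign in such fits were, for OIM against control, A2M (-0.0822 to 0.0792, with -0.0126 without control replicate 2), ADAMTS8 (-0.127 to 0.451), FOSB (-0.129 to 0.018), MMP23B (-0.0944 to 0.0182), THBS1 (-0.0744 to 0.0143) and IL6 (-0.0101 to 0.17), and for bFGF against control MMP13 (-0.401 to 0.061). By longest transcript the MMP to TIMP ratio was 1.13 in control and 1.18 in OIM, against 1.16 and 1.20.

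No effect shared by same-numbered libraries was seen: correlations of deviations between them were -0.032 to 0.0035, against -0.026 to 0.0534 for different numbers. These values cannot show whether same-numbered libraries came from the same pig or culture. With the replicate block the calls on the 10 genes were the same in number, MMP25 lost its call in bFGF against control (0.95) and ADAMTS15 was called lower in OIM against control, and over all genes 195 were higher and 114 lower in OIM against control, 2413 and 2504 in bFGF against OIM, and 2572 and 2713 in bFGF against control. MMP3, MMP12, MMP13 and TIMP4 rest on few counts, which limits their precision.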
